A study of Rattus norvegicus with 12 samples.

Results

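The axon guidance ligands and receptors were examined in rat brain 24 h after a transient arterial occlusion. They comprise the semaphorins (Sema3 to Sema7) and their plexin and neuropilin receptors, the ephrins and Eph receptors, Slit ligands and Robo receptors, netrins with Unc5 and Dcc, the Nogo gene Rtn4 with its receptors, and the Lingo genes. The families were chosen with earlier results of these data known. Within them membership went by gene symbol: every probe set that the array annotation assigned to a single gene of these families was taken. This gave 110 probe sets for 63 genes, of 20826 such probe sets for 14217 genes in all. The pattern for Rtn4 also took in Rtn4ip1, a mitochondrial protein gene named for binding Rtn4.

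Oligonucleotide arrays measured messenger RNA in the left hemisphere of male Sprague-Dawley rats, 8 weeks old, with 1 array for each of 12 animals. The groups were 7 rats with an occluded middle cerebral artery (MCAO, a surgical model of ischemic stroke) and 5 sham-operated rats (Sham). Tissue was collected 24 h into reperfusion, and neither the duration nor the side of the occlusion is in the labels. Hemisphere tissue holds many cell types and both injured and spared regions, so fewer cells of a type and less RNA per cell cannot be told apart here.

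Guidance cues steer growing axons by attraction or repulsion. Secreted class 3 semaphorins bind a neuropilin paired with an A-type plexin, while most membrane semaphorins bind plexins directly. Ephrins and Eph receptors signal between touching cells in both directions, Slits repel through Robo receptors, and netrins attract through Dcc and repel through Unc5 receptors. In the adult brain many of the same genes act at synapses, on vessels and on glia, and the Nogo protein of myelin limits axon growth through the receptor Rtn4r and its partner Lingo1.

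Values are log2 signals as deposited, and levels of different probe sets are not comparable, so each gene was compared only between groups. The probe set with the highest mean stood for each gene, and genes had to exceed a log2 signal of 6.61 in at least 5 arrays. Of the 63 genes 59 did, each of them in all 12 arrays, so none was tested through 1 group alone. Dcc, Epha8, Ntn5 and Robo3 had no probe set above that limit. Of the 59 genes, 34 varied and 25 held nearly the same deposited value in all rats (near-constant, an SD under 0.01 across the 12 arrays). Among all 12153 tested genes 5814 were near-constant, so such values are common in the whole series. A near-constant value cannot show a change of any size. The near-constant genes included 4 of 5 ephrins (Efna1, Efna4, Efna5 and Efnb1), the ligands Sema3a, Sema3f, Slit1, Slit3 and Ntn1, and the receptors Plxnb2, Plxnd1 and Robo1. Although 7 of the 25 passed the threshold, their largest absolute log2 change was 0.00875 and is not interpreted.

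Most guidance genes that changed were lower after MCAO. Of the 34 varying genes 19 fell, 3 rose and 12 did not pass (limma, Benjamini-Hochberg adjusted over 12153 genes, threshold 0.05). Without MCAO 4 the genes that rose were 5, with Sema3c and Plxna4 added, and 20 fell. Other omissions cut the falls: without Sham 3 or Sham 4 those of Plxna2, Sema4d, Sema6b and Slit2 were lost. The lower genes made up 55.9% of the varying members, where 34.2% of all varying genes were lower, and the higher ones 8.82%, where 35.2% of all were higher. The share called in either direction was 64.7%, near the 69.3% of all varying genes. The median log2 change (MCAO minus Sham) was -0.26 over the 34 members and 0.03 over all 6339 varying genes. None of the 34 changed by 2-fold or more, and the changes ran from -0.81 for Rtn4r to 0.73 for Unc5b. In 12 of the genes that fell, all 7 MCAO values lay below all 5 Sham values, which was so for 16.2% of all varying genes. In Unc5b alone all MCAO values lay above all Sham values, against 17.9% of all varying genes. Over all 93 member probe sets that passed the limit, 51 varied, of which 29 fell and 6 rose (limma, adjusted over 17238 probe sets), where 30.7% of all varying probe sets fell and 37.0% rose.

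**Figure D1:**
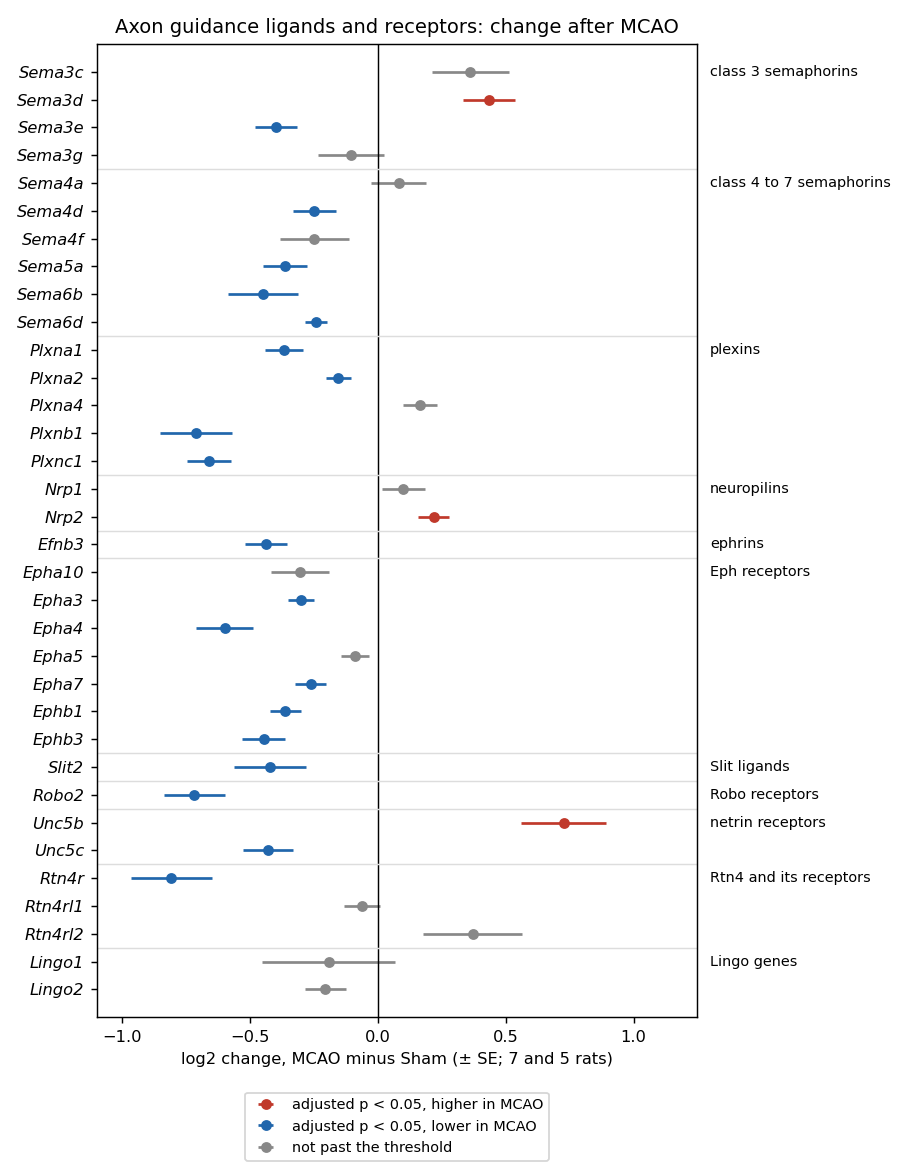
Log2 change (MCAO minus Sham, horizontal axis, with standard errors) of the 34 varying guidance genes, grouped by family, from 7 MCAO and 5 Sham rats. Blue points fell, red points rose and grey points did not pass the adjusted threshold of 0.05. The 19 blue points spread over most families, and the 3 red points are Sema3d, Nrp2 and Unc5b.

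The sequences upstream of 3 genes are shown because they are the largest fall, the largest rise and the 1 changed member with a searched motif. They are the 250 bases before the RefSeq gene start on GRCr8, a build unrelated to the array values, read in the direction of the gene with motif matches in capitals.
Rtn4r, chr11:96373555-96373804, minus strand: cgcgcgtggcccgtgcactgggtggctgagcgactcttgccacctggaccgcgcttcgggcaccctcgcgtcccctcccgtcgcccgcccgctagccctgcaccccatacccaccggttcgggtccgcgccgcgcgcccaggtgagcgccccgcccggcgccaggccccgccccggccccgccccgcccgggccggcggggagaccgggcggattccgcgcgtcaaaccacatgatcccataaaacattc
Unc5b, chr20:29307271-29307520, minus strand: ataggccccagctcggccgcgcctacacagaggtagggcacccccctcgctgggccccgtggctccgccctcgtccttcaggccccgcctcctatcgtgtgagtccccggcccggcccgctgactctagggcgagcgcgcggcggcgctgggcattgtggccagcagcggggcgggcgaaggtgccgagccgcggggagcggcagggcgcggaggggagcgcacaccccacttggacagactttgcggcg
Sema3e, chr4:21510375-21510624, minus strand: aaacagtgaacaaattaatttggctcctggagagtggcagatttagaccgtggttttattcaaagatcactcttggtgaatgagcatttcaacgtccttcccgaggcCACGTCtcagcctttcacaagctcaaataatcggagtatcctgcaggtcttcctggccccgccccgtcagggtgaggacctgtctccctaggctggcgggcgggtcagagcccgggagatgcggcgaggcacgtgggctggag
Of the 59 tested genes 43 had such a sequence in the table. The motifs searched on both strands were AP-1 (TGAGTCA), STAT (TTCCNGGAA), the hypoxia response core and the 10-base consensus of NF-kB. The hypoxia core was searched only as TACGTG or GACGTG, so other forms of it are not counted or marked. None of the motifs overlapped another in these windows. The searched hypoxia forms are in 7.98% of all 33469 windows and, among members, in those of Sema3e, Epha10 and Slit3. AP-1 is in 4.05% of all windows and in those of Epha10 and Rtn4ip1, while STAT (1.07% of all) and NF-kB (0.096% of all) are in no member's window. The windows of Rtn4r and Unc5b hold 37 and 30 CG pairs and have 76.4% and 75.2% G and C, against a median of 51.2% over all windows. A match is a description of letters and shows no binding.

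Among the class 3 semaphorins, the secreted ligands of neuropilins, Sema3d rose and Sema3e fell. Sema3e (Entrez Gene 296789), which binds Plxnd1 without needing a neuropilin, was at 9.55, 9.71, 9.73, 9.71 and 9.46 in the Sham rats and between 9.02 and 9.44 in the MCAO rats, with a median of 9.24. Every MCAO rat was below every Sham rat, and the log2 change was -0.40 ± 0.08 (SE; limma adjusted p = 0.0043). Sema3d (Entrez Gene 246262) was at 6.95, 6.70, 6.82, 6.79 and 6.77 in Sham and between 6.79 and 7.45 in MCAO, with a median of 7.32. It was above all Sham values in 6 of 7 MCAO rats, whereas MCAO 2 lay at 6.79 within the Sham range. The log2 change was 0.43 ± 0.10 (limma adjusted p = 0.00706), and the gene lies close to the lower limit of signal. Sema3c, another secreted member, had a change of 0.36 ± 0.15 that did not pass (limma adjusted p = 0.0747). Its highest value, 9.63, was that of MCAO 5, and MCAO 4 was at 8.70, inside the Sham range. Sema3g, a semaphorin of vessels, had a change of -0.11 ± 0.13 (limma adjusted p = 0.561).

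The membrane-bound semaphorins of classes 4 to 6 were lower or did not pass, and none rose. Of 6 varying genes 4 fell, where 34.2% of all varying genes fell. Sema6d, a transmembrane ligand of A-type plexins, was at 9.98, 9.97, 10.08, 9.88 and 10.03 in Sham and from 9.61 to 9.83 (median 9.76) in MCAO. The groups did not overlap, and the spread within each was small (SD 0.08 in both), so that a log2 change of -0.24 ± 0.04 passed (limma adjusted p = 0.00253). Sema5a, a semaphorin with thrombospondin repeats, was 77.7% of its Sham level, at 8.39 to 8.88 in MCAO and 8.91 to 9.18 in Sham (limma adjusted p = 0.00764). Sema6b and Sema4d fell by 0.45 and 0.25 on the log2 scale, with 1 MCAO rat each inside the Sham range. Their calls depended on single arrays. Sema6b was lost without Sham 3 or Sham 4 (limma adjusted p up to 0.0587 over all alternatives). Sema4d, a ligand of Plxnb1 found on oligodendrocytes and lymphocytes, was lost without any 1 of MCAO 1, 3, 5, 6 or 7 or Sham 2, 3 or 4 (limma adjusted p up to 0.0861). Sema4f and Sema4a had changes of -0.25 ± 0.13 and 0.08 ± 0.11, which did not pass.

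Plexins are the signalling receptors of semaphorins. By the representing probe sets, 4 of 5 varying plexin genes fell, where 34.2% of all varying genes fell, and none rose. The 4 include Plxna2, whose 2 varying probe sets changed in opposite directions (-0.15 and 0.22). Plxnc1 (Entrez Gene 362873), the receptor of Sema7a, had the lowest adjusted p of all members. It was at 8.39, 8.32, 8.36, 8.28 and 8.26 in Sham and from 7.39 (MCAO 6) to 7.90 (MCAO 4) in MCAO, with a median of 7.68. All MCAO values lay below all Sham values, and the change of -0.66 ± 0.09 put it at 63.3% of the Sham level (limma adjusted p = 0.00096). Plxnb1 (Entrez Gene 316009), the receptor of Sema4d, was at 8.63, 8.74, 8.74, 8.62 and 8.53 in Sham. In MCAO it ranged from 7.66 in MCAO 6 to 8.50 in MCAO 4 with a median of 7.81, so the MCAO rats were spread widely and MCAO 4 lay just under the Sham values. The change was -0.71 ± 0.14 (limma adjusted p = 0.00342). Plxna1, a co-receptor of neuropilins, fell by 0.37 (SE 0.08), with MCAO 2 at 8.48 overlapping Sham 5 at 8.46. Plxna4, also a neuropilin partner, had a change of 0.17 ± 0.07 that did not pass (limma adjusted p = 0.0687). Its second probe set rose by 0.46 ± 0.09, with 1 MCAO rat inside the Sham range (limma adjusted p = 0.00355 over all probe sets). Plxna3 was represented by a near-constant probe set, while its other probe set fell by 0.36 (SE 0.10; limma adjusted p = 0.0169 over all probe sets). Leaving out near-constant probe sets therefore added Plxna3 to the genes that fell.

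The neuropilins, which bind class 3 semaphorins and also vascular endothelial growth factors, had no fall among their 2 genes. Nrp2 was at 8.08, 8.18, 8.06, 8.05 and 8.00 in Sham and from 8.08 to 8.42 (median 8.34) in MCAO. MCAO 4 lay within the Sham range and the other 6 rats above it, with a change of 0.22 ± 0.06 (limma adjusted p = 0.0147). For Nrp1 the representing probe set had a change of 0.10 ± 0.08 that did not pass (limma adjusted p = 0.372). Its second probe set rose by 0.22 ± 0.05 with all MCAO values (8.15 to 8.38) above all Sham values (7.99 to 8.14; limma adjusted p = 0.00556 over all probe sets). The change of the 2 Nrp1 probe sets did not differ past the threshold (difference -0.12, exact permutation p = 0.14).

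Ephrins and their receptor tyrosine kinases were lower wherever they changed. Efnb3 (Entrez Gene 360546), a transmembrane ephrin known as a midline and myelin cue for EphA4-bearing axons, was the 1 varying ephrin. It was at 9.17, 9.16, 9.12, 9.13 and 9.02 in Sham and from 8.43 (MCAO 6) to 8.88 (MCAO 4) in MCAO, with a median of 8.65. The groups were apart, and the change was -0.44 ± 0.08 (limma adjusted p = 0.00281). Of 7 varying Eph receptor genes 5 fell, where 34.2% of all varying genes fell. Epha4 (Entrez Gene 316539), which binds ephrins of both classes, was at 10.77, 10.85, 10.83, 10.80 and 10.75 in Sham. In MCAO it ran from 9.87 in MCAO 1 to 10.62 in MCAO 4 with a median of 10.24, a change of -0.60 ± 0.11 to 66.0% of the Sham level (limma adjusted p = 0.00286). The other 2 varying Epha4 probe sets changed less, and in both MCAO 4 lay above every Sham value. Of these, 1 fell by 0.38 (SE 0.11; limma adjusted p = 0.0177 over all probe sets). The other had a change of -0.34 ± 0.13 that did not pass (limma adjusted p = 0.0587). Ephb1, a receptor of transmembrane ephrins, was at 7.91, 8.03, 7.99, 7.97 and 7.80 in Sham and 7.40 to 7.74 in MCAO (median 7.61). It changed by -0.36 ± 0.06 without overlap (limma adjusted p = 0.00184). Epha3 changed by -0.30 ± 0.05, from 7.60 to 7.75 in Sham against 7.26 to 7.55 in MCAO (limma adjusted p = 0.00211). Ephb3 and Epha7 fell by 0.45 and 0.26, each with MCAO 4 alone inside the Sham range. Epha10 and Epha5 had changes of -0.31 ± 0.11 (limma adjusted p = 0.0518) and -0.09 ± 0.05 (limma adjusted p = 0.214).

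Slit2 and its receptor gene Robo2 were both lower. Robo2 (Entrez Gene 84409) was at 9.45, 9.53, 9.54, 9.56 and 9.58 in Sham and from 8.54 in MCAO 6 to 9.31 in MCAO 4, with a median of 8.75. All MCAO rats were below the narrow Sham range (SD 0.05), and the change of -0.72 ± 0.12 left 60.8% of the Sham level (limma adjusted p = 0.00188). A second varying Robo2 probe set fell less, by 0.41 (SE 0.12; limma adjusted p = 0.0185 over all probe sets). In it MCAO 4, at 7.79, lay inside the Sham range of 7.63 to 7.83. Slit2 (Entrez Gene 360272) was at 8.01, 8.08, 8.02, 8.11 and 7.90 in Sham. In 6 of the MCAO rats it was at 7.30 to 7.70, and in MCAO 4 it was at 8.23, above every Sham value. The change was -0.42 ± 0.14 (limma adjusted p = 0.0331). This call was lost without any 1 of MCAO 1, 5, 6 or 7 or Sham 1, 2, 3 or 4, with adjusted p from 0.0513 to 0.0724 in limma. A second Slit2 probe set had no overlap, with 7.01 to 7.75 in MCAO against 7.90 to 8.04 in Sham and a change of -0.74 ± 0.12 (limma adjusted p = 0.0018 over all probe sets). The fall of the 2 Slit2 probe sets differed by 0.32 (exact permutation p = 0.00253). The sizes for Slit2 and Robo2 are therefore not ranked.

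The netrin receptors Unc5b and Unc5c, both repulsive receptors of netrin-1, went in opposite directions. Unc5b (Entrez Gene 60630), which also acts in vessel growth and cell death, was at 7.68, 7.32, 7.46, 7.59 and 7.44 in Sham and from 7.75 in MCAO 2 to 8.76 in MCAO 3, with a median of 8.25. All MCAO rats lay above the Sham rats, though MCAO 2 exceeded Sham 1 by little. The change of 0.73 ± 0.17 is a 1.65-fold rise (limma adjusted p = 0.00638). Its second probe set rose less, by 0.32 ± 0.06 from 6.75 to 6.92 in Sham to 6.89 to 7.28 in MCAO, with MCAO 2 inside the Sham range (limma adjusted p = 0.00382 over all probe sets). The 2 probe sets differed by 0.41 (exact permutation p = 0.0114, adjusted p = 0.0189 over 15 comparisons), so the direction of the Unc5b change is shared and its size is not settled. Unc5c (Entrez Gene 362049) was at 8.08, 8.27, 8.15, 8.06 and 7.98 in Sham and from 7.36 to 7.92 (median 7.68) in MCAO, with a change of -0.43 ± 0.10 and no overlap (limma adjusted p = 0.00609). The log2 ratio of Unc5b to Unc5c was 1.16 higher in MCAO by the representing probe sets, which is given as a description because the pair was picked after the values were seen. The ligand gene Ntn1 was near-constant on all 3 of its probe sets.

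**Figure D2:**
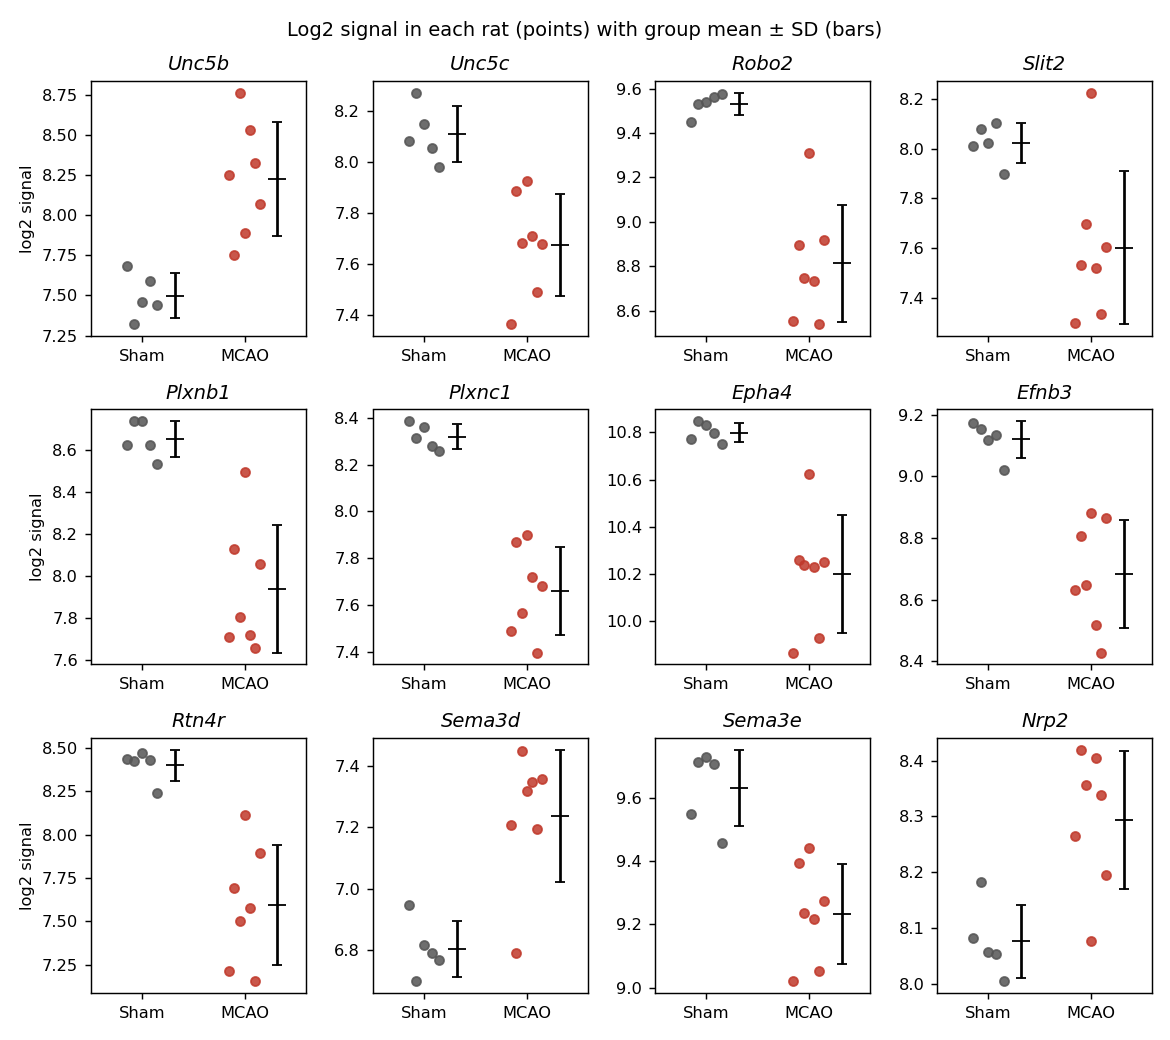
Log2 signal (vertical axis, a separate range for each gene) of 12 guidance genes in each of 5 Sham (grey) and 7 MCAO (red) rats, with bars for the group mean ± SD. MCAO 4 is the highest MCAO point in every gene shown but Unc5b, Sema3d and Nrp2. In Slit2 it lies above the Sham points at 8.23.

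In the Nogo system the receptor gene changed and the ligand gene did not pass. Rtn4r (Entrez Gene 113912), the Nogo receptor on axons, was at 8.44, 8.43, 8.47, 8.43 and 8.24 in Sham. In MCAO it was between 7.15 in MCAO 6 and 8.12 in MCAO 4, with a median of 7.58, so no MCAO rat reached the lowest Sham value. The change of -0.81 ± 0.16, to 57.1% of the Sham level, was the largest among the members (limma adjusted p = 0.00336). All 3 Rtn4r probe sets fell, by 0.81, 0.77 and 0.61. In the last of these MCAO 4, at 7.76, lay inside the Sham range of 7.71 to 7.87. The paralogs Rtn4rl1 and Rtn4rl2 had changes of -0.06 ± 0.07 and 0.37 ± 0.19 that did not pass (limma adjusted p = 0.517 and 0.149). A second Rtn4rl1 probe set fell by 0.11 (SE 0.04; limma adjusted p = 0.0323 over all probe sets), with 2 MCAO rats inside the Sham range, and the 2 probe sets did not differ past the threshold (difference 0.05, exact permutation p = 0.347). For Rtn4rl2 the MCAO rats were spread from 7.79 to 8.92, with MCAO 2 highest, around Sham values of 7.86 to 8.13. Rtn4 itself had 1 near-constant probe set and 1 with a change of 0.05 ± 0.10 (limma adjusted p = 0.719 over all probe sets). Lingo1 had the widest spread of all members in MCAO, from 9.40 in MCAO 6 to 10.83 in MCAO 2 with an SD of 0.57, against 10.14 to 10.49 in Sham. No MCAO rat lay inside the Sham range: 3 were above it and 4 below, and the change of -0.19 ± 0.26 did not pass (limma adjusted p = 0.596). Lingo2 had a change of -0.21 ± 0.08 (limma adjusted p = 0.0586), and 6 of 7 MCAO rats were below the Sham range. Without MCAO 4, which was at 8.71, it passed (limma adjusted p = 0.00136), as did its second probe set with all arrays (-0.43 ± 0.09).

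Related genes were also set side by side by the change of their ratio within each rat. The pairs were picked after their values were seen, many for their unlike changes, so the ratios are given with no test. The log2 ratio was 0.83 higher in MCAO for Sema3d over Sema3e, 0.53 higher for Plxna4 over Plxna1, 0.51 higher for Epha5 over Epha4, and 0.75 higher for Rtn4rl1 over Rtn4r. In these pairs each of the 7 MCAO rats exceeded every Sham rat. The ratio of Rtn4rl2 to Rtn4r was 1.18 higher, with 6 of 7 MCAO rats above all Sham rats. The ratio of Nrp2 to Nrp1 was 0.12 higher and that of Efnb3 to Epha4 0.16 higher, with 3 and 5 MCAO rats above all Sham rats and 1 below them in each. A changed ratio shows unequal change and does not say which of the genes moved.

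Probe sets of the same gene were compared in the same way for the 13 genes with more than 1 varying probe set. Their direction was the same in 12 of these genes. In Plxna2 the representing probe set fell by 0.15 (SE 0.05; limma adjusted p = 0.0306 over all probe sets), while the other had a change of 0.22 ± 0.09 that did not pass (limma adjusted p = 0.0634). The difference of -0.37 passed (exact permutation p = 0.0139, adjusted p = 0.0208 over 15 comparisons), so Plxna2, counted among the 19 genes that fell, has no settled direction. Its call was also lost without any 1 of MCAO 3, 5 or 6 or Sham 1, 2, 3 or 4. The widest difference was that of Unc5b, 0.41, where both probe sets rose. For Plxnb1, Plxnc1, Robo2 and Epha4 the change of the representing probe set was lower than that of each other varying one, by 0.22 to 0.39 on the log2 scale (exact permutation p from 0.00126, the smallest possible, to 0.0114). Of these others, 1 Epha4 probe set did not pass (-0.34 ± 0.13). Averaging all probe sets of a gene, near-constant ones included, kept these calls with smaller changes, such as -0.38 for Robo2, -0.39 for Plxnb1, -0.33 for Epha4, -0.22 for Unc5c, -0.18 for Sema5a and -0.15 for Epha3. For Plxna4 the second probe set rose by 0.46 ± 0.09 (limma adjusted p = 0.00355 over all probe sets) where the first did not pass.

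**Figure D3:**
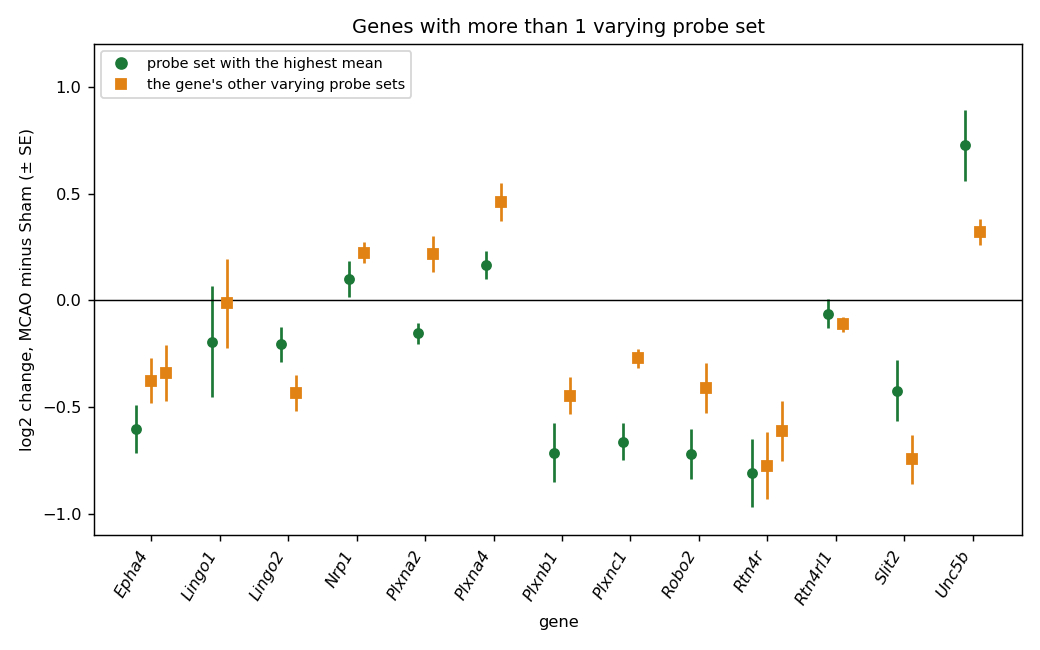
Log2 change (MCAO minus Sham, vertical axis, with standard errors) for every varying probe set of the 13 genes that have more than 1. Green circles are the probe sets that represent the gene, and orange squares are the others. Only Plxna2 has probe sets on both sides of 0, at -0.15 and 0.22.

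The rats differed in how far their guidance genes moved. Averaged over the 34 varying genes, the log2 difference from the Sham mean was -0.35 in MCAO 6 and -0.30 in MCAO 1. It was -0.22 in MCAO 3, -0.21 in MCAO 5, -0.15 in MCAO 7 and -0.12 in both MCAO 2 and MCAO 4, and the Sham rats lay between -0.07 and 0.05. MCAO 6 had the lowest value of all 12 arrays in 13 of the 34 genes and MCAO 1 in 9. MCAO 4 was inside the Sham range in 10 of 34 genes and MCAO 1 in 2. The SD was larger in MCAO than in Sham for 32 of 34 genes, which was so for 89.4% of all varying genes.

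**Figure D4:**
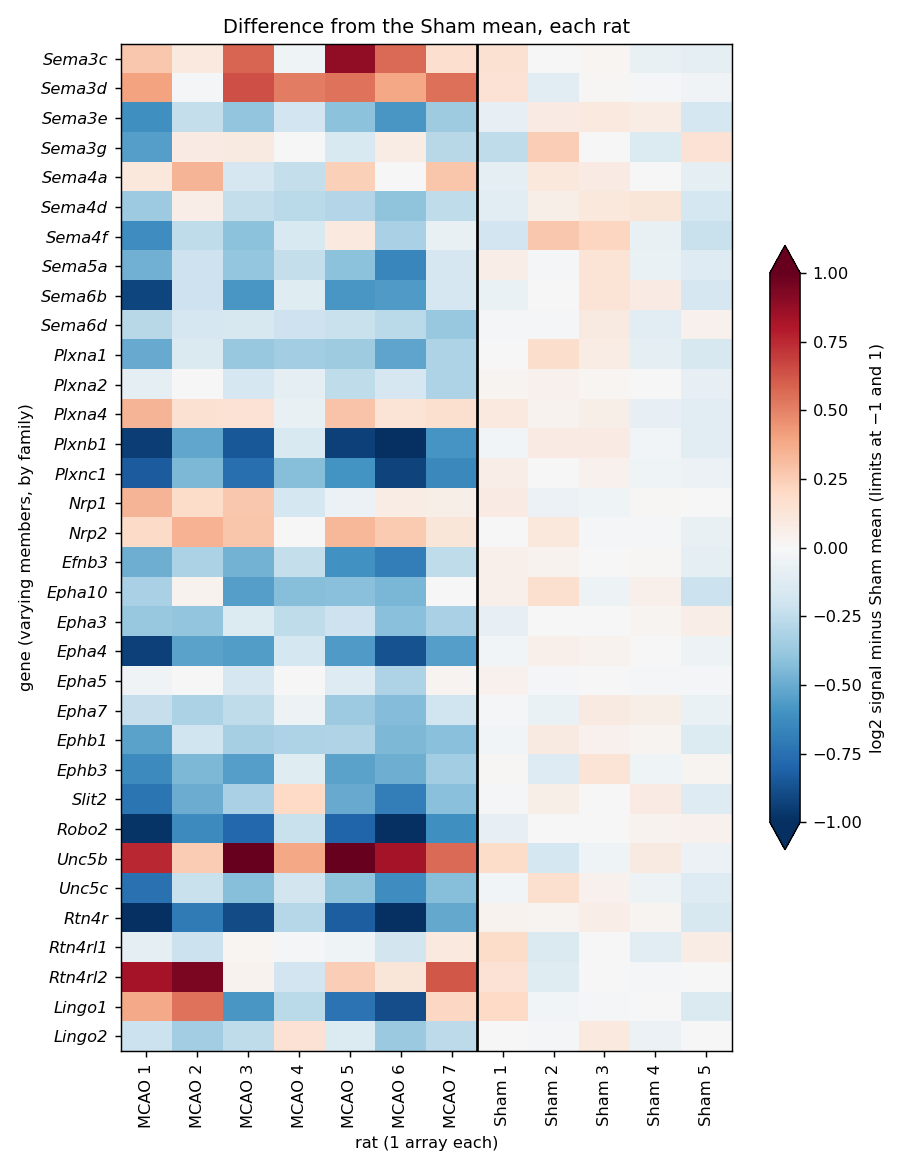
Difference of each rat's log2 signal from the Sham mean (colour, blue lower and red higher, with colours limited at -1 and 1) for the 34 varying guidance genes (rows, by family) in 7 MCAO and 5 Sham rats (columns). The blue is deepest in MCAO 1 and MCAO 6 and palest in MCAO 4, which was inside the Sham range in 10 genes.

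Levels of cell type markers are given beside the guidance genes, and their counts are read against the 34.2% of all varying genes that fell and the 35.2% that rose. All 8 neuron markers varied and 3 of them fell, a share near that background. The changes of all 8 were negative, from -0.51 for Rbfox3 to -0.07 for Nefl. Their median was -0.22, against -0.26 over the guidance genes and 0.03 over all varying genes. The summed level (log2 of the summed signals) was 14.20 to 14.53 in MCAO and 14.56 to 14.64 in Sham. All 5 measured striatal neuron markers fell, from a summed level of 11.23 to 11.37 in Sham to 10.36 to 10.73 in MCAO. The mean difference of the neuron markers was -0.43 in MCAO 6, -0.38 in MCAO 5, -0.36 in MCAO 3, -0.31 in MCAO 1, -0.14 in MCAO 7, -0.11 in MCAO 2 and -0.06 in MCAO 4. In both the neuron markers and the guidance genes, MCAO 2, 4 and 7 were thus the rats nearest to Sham. The same rats were nearest in the striatal neuron markers (-0.62, -0.75 and -0.80) and the oligodendrocyte markers (-0.06, -0.03 and -0.14). In the astrocyte markers, where Gfap rose and others fell, MCAO 5 was nearest (0.02). The nearest rat was MCAO 3 in the oligodendrocyte precursor markers (-0.005) and MCAO 2 in the leukocyte markers (0.74). What the likeness of the guidance genes to any of these lists reflects was not tested. Of 4 varying oligodendrocyte markers 2 fell, with a summed level of 11.98 to 12.39 against 12.18 to 12.62, and Mbp was near-constant. Of 5 varying astrocyte markers 3 fell (Aldh1l1 by 0.78, Gja1 by 0.32 and Slc1a3 by 0.28), while Gfap, the intermediate filament gene of reactive astrocytes, rose by 1.91, and the summed level was 13.59 to 13.86 in MCAO against 13.39 to 13.47 in Sham. Of 2 varying oligodendrocyte precursor markers Olig1 fell by 0.33 (summed level 10.73 to 11.36, against 11.15 to 11.34). Beside Unc5b, Nrp2 and Sema3d, of 5 varying endothelial markers 2 rose and 1 fell (summed level 10.63 to 11.09 in MCAO, 10.91 to 11.22 in Sham), a share of rises near the background. Of 3 varying pericyte and smooth muscle markers Tagln rose, by 1.56 (9.45 to 10.46, against 9.14 to 9.66), and of 5 meningeal fibroblast markers 1 rose (10.30 to 11.19, against 10.23 to 10.61). All 3 varying leukocyte markers rose (8.82 to 10.20, against 7.97 to 8.19), and of 5 varying microglia and macrophage markers 3 rose and 2 fell. The part of these cell types in the results was not tested.

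**Figure D5:**
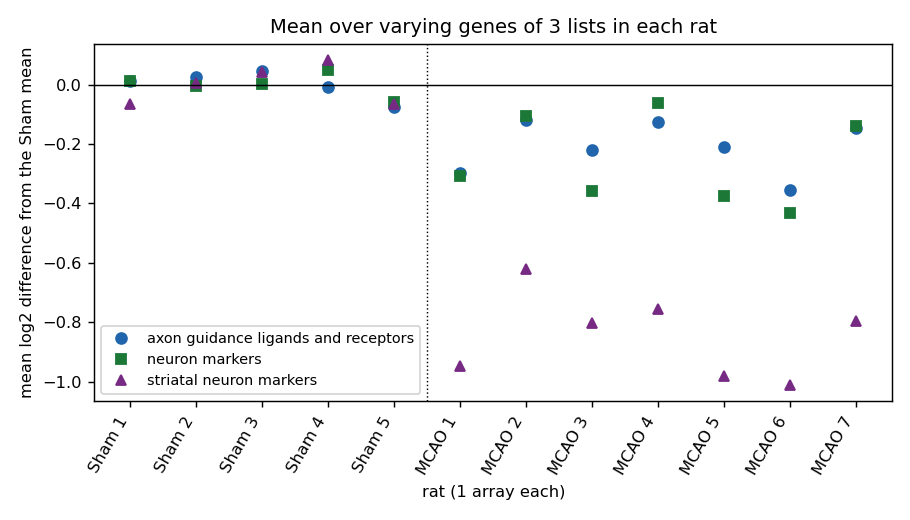
Mean log2 difference from the Sham mean (vertical axis) in each rat for the 34 varying guidance genes (blue circles), 8 neuron markers (green squares) and 5 striatal neuron markers (purple triangles). The guidance genes and the neuron markers are lowest in MCAO 6, at -0.35 and -0.43.

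Genes that act with these receptors inside the cell, and other guidance genes, went both ways. Of a list of 71 such genes 64 were tested and 38 varied, of which 19 fell (where 34.2% of all varying genes fell) and 10 rose (26.3%, where 35.2% of all rose). Ngef, the exchange factor ephexin that acts below EphA4, fell to 55.5% of its Sham level (-0.85 ± 0.17), and Chn1, the chimaerin of the same pathway, fell by 0.65 (SE 0.14). The kinase gene Pak1 fell by 0.55 (SE 0.11), whereas its relative Pak2 rose by 0.30 ± 0.06. Rras, a small GTPase on which plexins act, rose by 0.59 ± 0.10, and the kinase gene Fyn, used by several guidance receptors, rose by 0.23 ± 0.04. All 6 had groups that did not overlap and passed (limma adjusted p from 0.00212 to 0.00535). Others were picked after their values were seen. Rhoa, the GTPase that carries growth cone collapse, rose by 0.63 ± 0.17 (limma adjusted p = 0.0128), with MCAO 2 inside the Sham range. The myelin inhibitor gene Omg, another ligand of Rtn4r, fell by 0.60 (SE 0.14; limma adjusted p = 0.00791), with MCAO 4 inside its Sham range. The adhesion gene L1cam fell by 0.49 (SE 0.11; limma adjusted p = 0.00645) without overlap. Mag, also an oligodendrocyte marker, had a change of 0.15 ± 0.09 that did not pass (limma adjusted p = 0.225).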

How the data were processed

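Arrays of 12 rats (7 MCAO, 5 Sham) were read from the deposited value table, with 31099 probe sets. Biotin-labelled cRNA came from 100 ng of total RNA, per the labels. The authors deposited the values on what was taken from their range as a log2 scale. The array software, background correction and normalization are not stated there or in the labels. Array medians lay between 7.23 and 7.28, so values were used as deposited, and no depth applies. The number of arrays limits the precision.

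Gene names came from the platform annotation, which gave 20826 probe sets 1 gene, 436 several and 9780 none, with 57 controls left out. All 63 member symbols equal those of RefSeq (GRCr8). No genome build was named for the arrays, so no gene positions are given beyond the RefSeq windows.

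Probe sets had to exceed 6.61, the 25th percentile, on 5 or more arrays, and the one with the highest mean was kept per gene, which left 12153 genes, 6339 of them varying. The comparison of MCAO and Sham used limma 3.58.1 under R 4.3.3 (lmFit, then eBayes with a trend on intensity, two-sided, Benjamini-Hochberg), and a second fit used all 17238 probe sets. Errors of changes are standard errors. Probe sets of a gene were compared by exact two-sided permutation tests over 792 splits, whose smallest possible p is 0.00126, adjusted over 15 comparisons, and ratios of gene pairs were described with no test. The fits and the permutation test were tested on simulated data.

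Named in full were the members that passed with groups apart (up to 12 each way) and the strongest of each family, and likewise up to 3 partner genes each way. Other genes were added for context after their values were seen. The members and lists were chosen with earlier results of these data known. Alternatives were other scalings, filters, probe set choices, eBayes settings, array weights, a block and leaving out each array.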

Additional observations from a re-analysis of the deposited data

Results flagged for a closer look

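In 44 groups of values (22 named genes, 2 groups each) 2 had a sample far from the others, where chance flags about 1 in 20. For Rtn4r, Sham 5 was the lowest Sham rat at 8.24, with the next at 8.43, and this gap was 0.808 of the group's range. For Slit2, MCAO 4 was the highest MCAO rat at 8.23, with the next at 7.70, a gap of 0.568 of the range.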

How the results depend on the processing

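Of the 22 guidance genes that passed, 15 kept their call and direction under all 25 alternatives, among them Rtn4r, Robo2, Plxnb1, Plxnc1, Epha4, Efnb3 and Unc5c. The other 7 lost the call at least once: Plxna2, Sema4d and Slit2 under 9 alternatives each, Sema6b under 3, and Nrp2, Sema3d and Unc5b under 1 each. Sema3d was not tested with the filter at the 50th percentile. The count of genes that rose, 3, moved to 5 with near-constant probe sets left out, with the mean of probe sets and with array weights, and it was 3 to 5 when single arrays were left out. The count that fell, 19, was 15 to 20 without single arrays. The partner genes were 8 to 11 higher and 17 to 22 lower without single arrays, and the probe sets 6 to 8 higher and 24 to 30 lower. In a fit with a replicate block, on the 10 arrays whose numbers both groups share, 1 guidance gene (Sema3d) rose and 17 fell. Under this block Unc5b (limma adjusted p = 0.0529), Nrp2 (limma adjusted p = 0.0572) and Slit2 (limma adjusted p = 0.11) did not pass, nor did Sema4d and Sema6b, and the partner genes were 4 higher and 11 lower. The block leaves out MCAO 6 and 7 and fits more terms. Same-numbered arrays did not deviate together throughout (correlations from -0.33 to 0.54), so the numbers were not taken as pairs, and 2 of the 5 Sham arrays correlated best with the MCAO array of their own number. Among the scalings, the largest shift of the median change of all genes was to -0.013, with equal array medians.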
